A study of Mus musculus with 21 samples.

Results

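The 10 genes described here are 9 genes of glucose uptake and glycolysis (*Slc2a1*, *Hk1*, *Hk2*, *Pfkm*, *Pfkp*, *Aldoa*, *Pgk1*, *Pkm* and *Ldha*) and *Fbp2*, which encodes the muscle isozyme of fructose bisphosphatase and acts in the opposite direction. They were taken by gene symbol from the skin and the lymph node gene tables of a bulk RNA sequencing study. The set was chosen by pathway and selected on earlier results of these data, with the lower level of *Fbp2* and of glycolysis genes in lesional skin known. They filled 11 of the 55491 rows in each table, because *Aldoa* had a main row and a second one just upstream of it. *Ifnk* TG mice express the interferon gene *Ifnk* from the keratin 14 promoter, which is active in basal keratinocytes, on the BALB/c background, and BALB/c WT mice were the controls. Skin came from 12-month-old untreated mice of both sexes, with the sex behind each library not given: 3 WT libraries (WT 8 to WT 10), 2 libraries of nonlesional TG skin (NL 2 and NL 3) and 4 of lesional TG skin (L 4 to L 7). Lesional skin was removed wherever lesions had formed, while nonlesional skin came from the back and from areas like those that bore lesions. The site behind each library is not given, so a part of body site in the differences was not tested. Inguinal lymph nodes, which drain skin and were passed through a cell strainer, came from WT and *Ifnk* TG mice that were either left untreated or given UVB light (310 nm, 250 mJ/cm2, 3 days per week for 2 weeks) and then observed for 2 more weeks, with 3 libraries in each of the 4 groups. The labels give no age for the mice behind the nodes. They also do not say that each library came from its own mouse, so the p-values below measure the spread between libraries, which may be technical in part.

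Glycolysis breaks glucose down to pyruvate. A transporter such as GLUT1 (*Slc2a1*) brings glucose in, hexokinases trap it as a phosphate ester, phosphofructokinase commits it to breakdown, and aldolase, phosphoglycerate kinase and pyruvate kinase carry it to pyruvate, which lactate dehydrogenase can turn into lactate. Fructose bisphosphatase undoes the phosphofructokinase step on the way from lactate or amino acids back to glucose or glycogen. Skeletal muscle and keratinocytes both rely on glycolysis but use partly different isozymes, with *Pfkm*, *Aldoa* and *Fbp2* being the forms best known from muscle.

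The skin libraries held 40499078 to 56511276 counts and the node libraries 27599809 to 36428435. Values below are in CPM, the count of a gene scaled to a common library size with TMM factors, and tests are edgeR quasi-likelihood tests with Benjamini-Hochberg adjustment over the 19101 genes tested in skin or the 16173 tested in nodes. The *Ifnk* gene had 14, 11, 5 and 8 counts in L 4 to L 7, 6 in NL 2, and 0 in NL 3, in the 3 WT skin libraries and in all 12 nodes. Basal keratinocyte markers were detected in every skin group, and T and B cell markers in every node group. Skin libraries differed widely in muscle RNA. The summed level of 18 skeletal muscle markers was 44285 to 60149 CPM in WT, 38524 and 45825 CPM in NL skin, and 12002 CPM in L 4, 40.3 CPM in L 5, 648 CPM in L 6 and 2435 CPM in L 7. In counts of genes, rose and fell mean called at an adjusted p under 0.05. Of these 18 markers, 6 fell and none rose between L and WT skin. There 14 had an unadjusted p under 0.05, 1 had a positive difference, and the median log2 difference was -3.81. None was called between L and NL skin, where 9 had an unadjusted p under 0.05. Markers of hair shaft (11 of 11), cycling cells (10 of 10) and wound keratinocytes (6 of 6) rose between L and WT skin, and 5 of 10 adipocyte markers fell while 1 rose. Of immune markers, 4 of 9 for neutrophils and 4 of 7 for T cells rose, and 2 of 7 for B cells fell. *S100a8* and *S100a9* rose and stand in both the neutrophil and the wound keratinocyte list. Of all tested genes, 23.0% rose and 20.2% fell between L and WT skin. The part of these markers in the results below was not tested except where stated. Among the nodes, the TG library 11 after UVB stood apart by genes typical of kidney, chosen after their values were seen: it held 403 CPM of *Kap* and 87.6 CPM of *Umod*, against at most 0.0872 CPM and 0 CPM in the other 11.

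The promoter windows of 4 genes are shown because *Fbp2* was lower and its neighbour and isozyme *Fbp1* higher in lesional skin, and because *Hk2* and *Ldha*, both lower there, carry the searched motifs at their starts. Each window runs from 250 bases before to 50 bases after a RefSeq start (GRCm38.p6), read 5′ to 3′ on the gene's strand. Capitals mark ACGTG and GCGTG, the core letters bound by hypoxia-inducible factors, and CAGCTG, an E-box bound by muscle regulatory factors, each on either strand. The windows lie at chr13:62858351-62858650 for *Fbp2* (minus strand), chr13:62888233-62888532 for *Fbp1* (minus strand), chr6:82774405-82774704 for *Hk2* (minus strand) and chr7:46845554-46845853 for the first of 2 *Ldha* starts (plus strand).
Fbp2: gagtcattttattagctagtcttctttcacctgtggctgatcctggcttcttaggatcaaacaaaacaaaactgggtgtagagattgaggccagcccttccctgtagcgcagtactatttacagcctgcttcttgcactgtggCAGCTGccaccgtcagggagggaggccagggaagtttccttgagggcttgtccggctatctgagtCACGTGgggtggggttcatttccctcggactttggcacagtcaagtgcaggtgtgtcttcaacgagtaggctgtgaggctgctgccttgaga
Fbp1: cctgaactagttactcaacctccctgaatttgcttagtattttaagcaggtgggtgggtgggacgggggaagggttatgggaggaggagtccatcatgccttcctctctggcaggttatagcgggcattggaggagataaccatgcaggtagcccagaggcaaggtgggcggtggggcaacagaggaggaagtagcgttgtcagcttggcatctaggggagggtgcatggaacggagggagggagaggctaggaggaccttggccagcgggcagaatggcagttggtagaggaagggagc
Hk2: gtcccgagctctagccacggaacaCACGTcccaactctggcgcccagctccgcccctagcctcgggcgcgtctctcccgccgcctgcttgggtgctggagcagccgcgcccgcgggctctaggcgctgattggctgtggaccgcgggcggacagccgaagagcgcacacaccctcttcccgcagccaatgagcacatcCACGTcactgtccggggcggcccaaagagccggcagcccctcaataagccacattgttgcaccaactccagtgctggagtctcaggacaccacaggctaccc
Ldha: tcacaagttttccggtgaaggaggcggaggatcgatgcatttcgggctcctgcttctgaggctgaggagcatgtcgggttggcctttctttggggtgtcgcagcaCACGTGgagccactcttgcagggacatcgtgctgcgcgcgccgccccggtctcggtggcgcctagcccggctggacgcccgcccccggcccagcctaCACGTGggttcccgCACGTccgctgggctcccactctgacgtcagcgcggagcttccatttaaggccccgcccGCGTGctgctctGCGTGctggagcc

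All 10 members had at least 1 window in the RefSeq table, 18 windows in all, with up to 4 starts for a gene. ACGTG occurred in 11 of the 18 member windows and in 19.6% of all 32851 windows in the table. It lay in at least 1 window of 9 of the 10 members, the exception being *Pfkp*, whose window instead held GCGTG 4 times. This count is per gene, and windows of the same gene can overlap. The share of all genes with ACGTG in any window was not computed, and the windows were not matched for base content. GCGTG occurred in 7 of the member windows and in 32.4% of all windows. The *Ldha* window above held ACGTG 5 times, 4 of which come from both strands of the palindrome CACGTG, which occurred in 7.15% of all windows and also lies in the *Fbp2* window. CAGCTG occurred in 3 member windows, 1 each for *Fbp2*, *Aldoa* and *Pkm*, and in 16.3% of all windows, while the *Fbp1* window held none of these letters. These are matches of letters in a fixed window and say nothing of binding.

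*Fbp2* (chr13:62836877-62858422, minus strand) had the largest fitted difference between lesional and WT skin among the 10 genes, with *Pfkm* next, although without L 4 that of *Pfkm* was larger (-4.95 against -4.21). It stood at 57.6, 37.2 and 50.8 CPM in WT 8, 9 and 10, at 23.8 and 29.8 CPM in NL 2 and 3, and at 3.13, 2.69, 2.07 and 3.10 CPM in L 4 to L 7. No library of one group overlapped another: all WT libraries lay above both NL libraries, and those above all L libraries. Of all tested genes, 23.4% lay lower in all L than in all WT libraries. The share was 24.7% for L against NL and 16.3% for NL against WT, so the lack of overlap alone is common here. The L values rested on 94 to 172 counts per library. On the fitted log2 scale *Fbp2* was lower by -4.14 (SE 0.21) in L than in WT skin, or 17.6-fold, and by -3.28 (SE 0.21) in L than in NL skin, or 9.73-fold. No p is given for these 2 differences, since *Fbp2* is named for its level in these groups. Between NL and WT skin the difference was -0.86 (SE 0.23), which did not pass the test (adjusted p = 0.503). In bulk tissue, fewer cells that express a gene and less of its RNA per cell cannot be told apart.

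**Figure D1:**
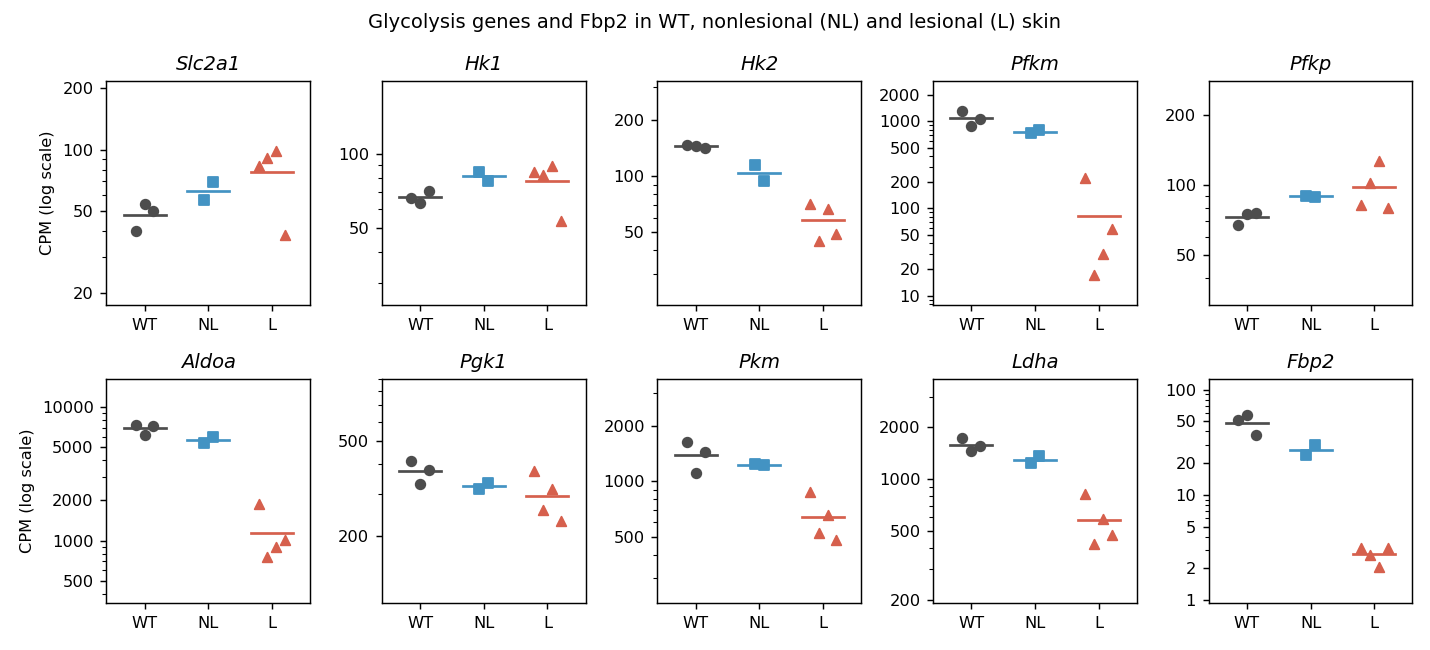
Each panel plots the CPM of 1 gene on a log axis for 3 WT, 2 nonlesional (NL) and 4 lesional (L) skin libraries, with points for libraries and a line at the group mean. *Fbp2*, *Pfkm*, *Aldoa*, *Hk2*, *Pkm* and *Ldha* lie lower in all 4 L libraries than in any WT library, and *Slc2a1* and *Hk1* have 1 low L library, L 7.

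*Fbp1*, the other fructose bisphosphatase and the form known from liver and kidney, moved the other way. The genes lie next to each other on the minus strand of chromosome 13, 6330 bases apart. *Fbp1* stood at 1.07, 2.23 and 1.09 CPM in WT 8, 9 and 10, at 0.497 and 1.23 CPM in NL 2 and 3, and at 37.8, 57.8, 81.0 and 118 CPM in L 4 to L 7. All 4 L libraries lay above every WT and NL library. Of all tested genes, 26.0% lay higher in all L than in all WT libraries and 24.7% higher in all L than in both NL libraries. *Fbp1* rose by 5.65 (SE 0.57, adjusted p = 0.000302) between L and WT skin, which is 50.2-fold, and by 6.44 (SE 0.72, adjusted p = 0.00137) between L and NL skin. In each WT and NL library *Fbp2* exceeded *Fbp1*, and in each L library *Fbp1* exceeded *Fbp2*. Scaled by exonic length, *Fbp1* stood at 43.3 ± 20.2 CPM per kb in L (SD, n = 4) and 0.860 ± 0.391 in WT skin (SD, n = 3), and *Fbp2* at 1.87 ± 0.336 and 33.0 ± 7.07. The cell type that carried *Fbp1* in lesions was not tested.

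The level of *Fbp2* in lesions was much the same in the 4 L libraries although their muscle RNA was not. The summed muscle markers ranged from 0.0771% of the WT mean in L 5 to 23.0% in L 4, while *Fbp2* stood at 5.54% of its WT mean in L 5 and 6.45% in L 4. Set against the muscle markers, *Fbp2* came to 0.71 to 1.3 CPM per 1000 marker CPM in WT, 0.618 and 0.651 in NL, and 0.261, 66.7, 3.20 and 1.27 in L 4 to L 7. With the muscle marker level as a covariate the fitted difference between L and WT skin was -3.92, against -4.14 without it. Here and below, the level used as covariate is the mean log2(CPM + 1) of the 18 markers, not their sum. Every L library held less muscle marker RNA than every NL and WT library, so muscle level and lesion cannot be told apart. The part of muscle RNA in the lower level of *Fbp2* was not tested. The 4 genes whose centred log2 CPM lay closest to that of *Fbp2* over the 9 libraries were *Kcnd2*, *Trdv4*, *Frmpd4* and *Gm37829*, with a root mean square difference of 0.30 to 0.46. *Aldoa* ranked 106th and *Pfkm* 291st of 19100 other tested genes by this measure. The nearest of the 18 muscle markers was *Ryr1*, at rank 5223. The measure also counts the size of a change, and in L 5 the summed markers fell further than *Fbp2*.

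*Slc2a1* (chr4:119108711-119137983, plus strand) encodes GLUT1, a glucose transporter of keratinocytes. It stood at 54.2, 50.4 and 39.9 CPM in WT 8, 9 and 10, at 56.6 and 69.7 CPM in NL 2 and 3, and at 83.3, 90.7, 98.4 and 38.2 CPM in L 4 to L 7. Of the 4 L libraries, 3 lay above every WT and NL library and L 7 lay below them all. The fitted difference of 0.69 (SE 0.30) between L and WT skin did not pass the test (adjusted p = 0.0929), and without L 7 it was 0.92 (adjusted p = 0.00199). Leaving out any other library gave no call. *Slc2a4*, the insulin-responsive transporter of muscle and fat, fell by 2.73 (SE 0.52, adjusted p = 0.00434), from a mean of 168 to 25.4 CPM. *Slc2a3* did not pass the test, at 25.2, 4.64, 5.31 and 4.59 CPM in L 4 to L 7 and 4.27, 9.35 and 4.87 CPM in WT, so that L 4 alone lay above the WT range (log2 difference 0.69, SE 0.67, adjusted p = 0.438). As a share of the length-scaled level of these 3 transporters, *Slc2a1* made up 71.4% ± 16.7 (SD, n = 4) in L and 21.8% ± 2.19 (SD, n = 3) in WT skin. This gave p = 0.0571 by a two-sided exact permutation test, the smallest p that 4 against 3 libraries allow (adjusted p = 0.0762 over 4 shares).

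The hexokinases gave different results. *Hk1* (chr10:62268855-62379908, minus strand), the widely expressed form, ranged from 63.4 to 70.9 CPM in WT and stood at 84.6 and 78.1 CPM in NL and 84.5, 82.0, 89.8 and 53.7 CPM in L 4 to L 7. Here too L 7 was the one low lesional library, and the difference between L and WT skin was 0.21 (SE 0.17, adjusted p = 0.326), or 0.36 (adjusted p = 0.0136) without L 7. No other left-out library brought a call. *Hk2* (chr6:82725025-82774454, minus strand), the inducible form found in muscle, fat and growing cells, stood at 145, 141 and 146 CPM in WT, 114 and 93.7 CPM in NL, and 71.1, 44.8, 66.5 and 49.0 CPM in L 4 to L 7. These 3 groups did not overlap. Of all tested genes, 23.4% lay lower in all L than in all WT libraries and 16.3% lower in both NL than in all WT libraries. With the 24.7% lower in all L than in both NL libraries, these shares also stand beside the genes below. *Hk2* fell by 1.32 (SE 0.17, adjusted p = 0.000549) between L and WT skin and by 0.84 (SE 0.19, adjusted p = 0.0130) between L and NL skin. Its share of *Hk1* and *Hk2*, scaled by length, was 51.6% ± 5.60 (SD, n = 4) in L and 75.5% ± 1.40 (SD, n = 3) in WT skin, without overlap (exact permutation p = 0.0571). *Hk3* averaged 5.94 (WT) and 5.74 (L) CPM (adjusted p = 0.946).

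The muscle phosphofructokinase *Pfkm* (chr15:98092589-98132451, plus strand) had the widest spread in lesions. It stood at 885, 1060 and 1314 CPM in WT 8, 9 and 10, at 733 and 786 CPM in NL 2 and 3, and at 225, 17.1, 30.3 and 58.0 CPM in L 4 to L 7. All L libraries lay below all others, and they followed the order of their muscle markers. *Pfkm* fell by 3.72 (SE 0.82, adjusted p = 0.00833) between L and WT skin and by 3.20 (SE 0.86, adjusted p = 0.0297) between L and NL skin. The second call was lost with no filter on low counts (adjusted p = 0.0788), with only the compared groups in the fit (0.0732), and without L 6 (0.0534), L 7 (0.0783), NL 2 (0.109) or NL 3 (0.121), at differences of -3.25 to -2.92. Per 1000 CPM of muscle markers it came to 20.0 to 21.8 CPM in WT, 17.1 and 19.0 in NL, and 18.7, 425, 46.8 and 23.8 in L 4 to L 7. The platelet form *Pfkp* (chr13:6579768-6648777, minus strand) stood at 67.0 to 76.2 CPM in WT, 89.1 and 89.6 CPM in NL, and 82.1, 102, 127 and 79.9 CPM in L 4 to L 7. All L libraries exceeded all WT libraries, as did 26.0% of all tested genes, but the difference of 0.42 (SE 0.16) did not pass the test (adjusted p = 0.0633). It was 0.50 without L 4 (adjusted p = 0.0386) and 0.51 without L 7 (adjusted p = 0.0299), and leaving out any other library gave no call. The liver form *Pfkl* averaged 59.7 (WT) and 70.1 (L) CPM (adjusted p = 0.2). *Pfkm* thus made up 95.6% ± 1.25 (SD, n = 3) of the length-scaled level of the 3 forms in WT and 46.4% ± 26.0 (SD, n = 4) in L skin, from 22.6% in L 5 to 80.0% in L 4 (exact permutation p = 0.0571).

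**Figure D2:**
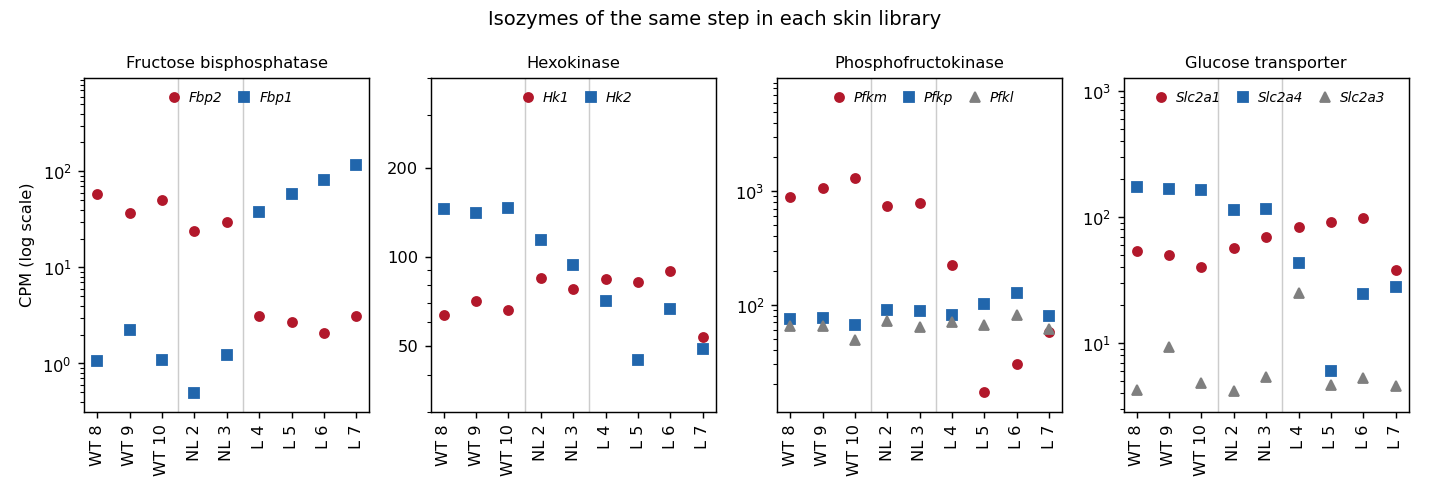
The CPM of isozymes of 1 step is plotted on a log axis for each of the 9 skin libraries, separated by group. *Fbp1* and *Fbp2* change places between the nonlesional and the lesional libraries, and *Slc2a1* lies above *Slc2a4* in the 4 L libraries and below it in all others.

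*Aldoa* (chr7:126795234-126800751, minus strand), the aldolase of muscle and most other tissues, was the most abundant member in skin. It stood at 6123, 7264 and 7391 CPM in WT 8, 9 and 10, at 5400 and 5988 CPM in NL 2 and 3, and at 1867, 753, 898 and 1006 CPM in L 4 to L 7. The lesional values lay far below the rest, and L 5, with almost no muscle RNA, was still close to L 6 and L 7. *Aldoa* fell by 2.61 (SE 0.31, adjusted p = 0.000392) between L and WT skin and by 2.33 (SE 0.33, adjusted p = 0.00234) between L and NL skin. The second *Aldoa* row (ENSMUSG00000114515), which lies just upstream on the same strand, held only 8 to 58 counts per skin library and 0 to 5 per node library and is not described further. The brain aldolase *Aldoc* averaged 8.64 (WT) and 11.2 (L) CPM (adjusted p = 0.148).

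*Pgk1* (chrX:106187100-106203699, plus strand), the kinase of the first ATP-yielding step, differed least among the abundant members. It ranged from 329 to 411 CPM in WT, stood at 316 and 332 CPM in NL, and at 374, 257, 315 and 233 CPM in L 4 to L 7, so that the groups overlapped. The difference of -0.34 (SE 0.17) between L and WT skin did not pass the test (adjusted p = 0.142), and without L 4 it was -0.47 (adjusted p = 0.0310). No other left-out library brought a call. Reads of *Aldoa*, *Pgk1*, *Ldha* and the like have to be separated from those of processed pseudogenes by the counting model, which makes their levels somewhat less certain.

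*Pkm* (chr9:59656368-59679375, plus strand), which makes both the muscle and the growth-associated pyruvate kinase by splicing that gene counts do not resolve, stood at 1110, 1441 and 1636 CPM in WT, 1244 and 1223 CPM in NL, and 882, 529, 661 and 484 CPM in L 4 to L 7. It fell by 1.13 (SE 0.23, adjusted p = 0.00445) between L and WT skin and by 0.95 (SE 0.25, adjusted p = 0.0258) between L and NL skin, where the call was lost with only the compared groups in the fit (adjusted p = 0.0542). *Ldha* (chr7:46841475-46855627, plus strand), the lactate-forming subunit, stood at 1458, 1553 and 1740 CPM in WT, 1243 and 1355 CPM in NL, and 819, 421, 591 and 476 CPM in L 4 to L 7. For both genes every L library lay below every other library, and L 4, which held the most muscle RNA of the 4, was the highest of them. *Ldha* fell by 1.46 (SE 0.22, adjusted p = 0.00123) and by 1.17 (SE 0.25, adjusted p = 0.0106) in these comparisons. *Ldhb*, the heart subunit, also fell between L and WT skin, by 0.91 (SE 0.22, adjusted p = 0.0111). *Ldha* made up 74.5% ± 10.5 (SD, n = 4) of both subunits in L and 81.9% ± 1.62 (SD, n = 3) in WT skin, scaled by length, a difference that did not exceed the spread (exact permutation p = 0.4).

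**Figure D3:**
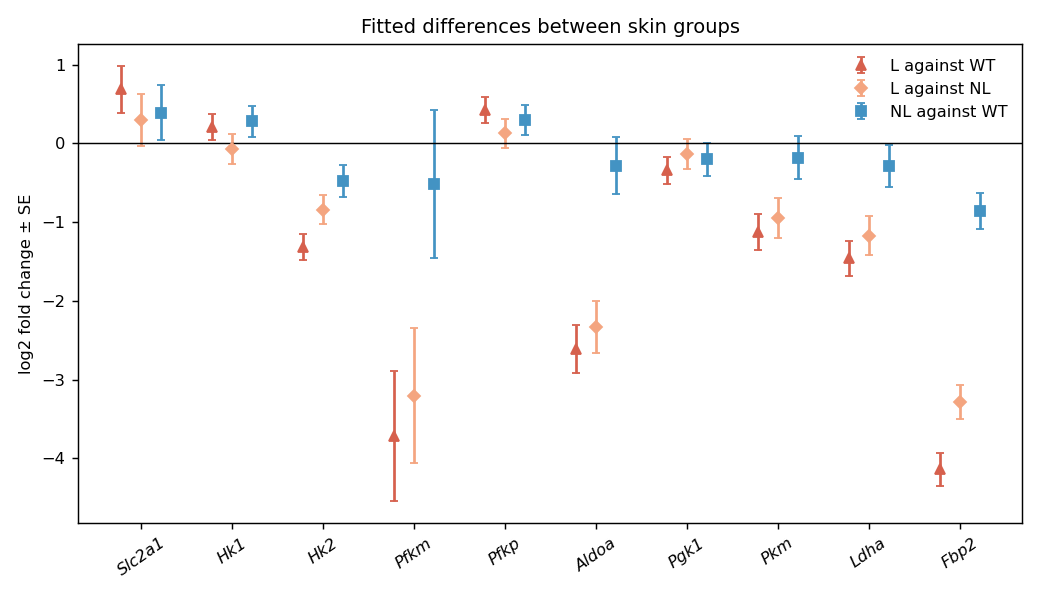
Fitted log2 fold changes of the 10 genes with their standard errors in 3 comparisons of skin groups. *Fbp2*, *Pfkm* and *Aldoa* lie lowest in both comparisons of L skin, and all NL against WT values lie between -0.86 and 0.39.

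Leaving out *Fbp2*, 5 of the other 9 members fell between L and WT skin (*Hk2*, *Pfkm*, *Aldoa*, *Pkm* and *Ldha*) and none rose, where 20.2% of all tested genes fell and 23.0% rose. The same 5 genes fell between L and NL skin, where 11.8% of all tested genes fell and 13.2% rose. These 2 comparisons share the L libraries, and the members were chosen with such results known, so the counts are a description. Without L 7, *Slc2a1*, *Hk1* and *Pfkp* counted as higher between L and WT skin, and without L 4 *Pfkp* alone did. Without NL 2 or without NL 3, which leaves 1 NL library, *Aldoa* alone of the 5 was called between L and NL skin, while calls over all genes went from 4782 to 1470 and 1182. The differences of the other 4 moved little, to -0.69 and -0.96 for *Hk2*, -3.25 and -3.14 for *Pfkm*, -0.94 and -0.95 for *Pkm* and -1.23 and -1.10 for *Ldha*. Between NL and WT skin no member was called, nor was any of the 19101 genes tested (0%), although 1465 had an unadjusted p under 0.05, *Fbp2* and *Hk2* among them. DESeq2 called 62 genes, and 1 was called with only the compared groups in the fit. In that comparison 3 members (*Slc2a1*, *Hk1* and *Pfkp*) were higher and 5 (*Hk2*, *Pfkm*, *Aldoa*, *Ldha* and *Fbp2*) lower without overlap, where 18.6% and 16.3% of all tested genes did so.

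How far muscle RNA moved with these values differed by gene. In L 5, where the muscle markers were at 0.0771% of the WT mean, *Pfkm* was at 1.58%, *Aldoa* at 10.9%, *Ldha* at 26.6%, *Hk2* at 31.1%, *Pkm* at 37.9% and *Pgk1* at 69.1% of their WT means. In L 4, at 23.0% of the WT muscle mean, the same genes stood at 20.7%, 27.0%, 51.7%, 49.4%, 63.2% and 100% of theirs. With the muscle marker level as a covariate, *Hk2* (-0.95, adjusted p = 0.0401), *Pfkm* (-1.68, adjusted p = 0.0269) and *Aldoa* (-1.78, adjusted p = 0.00945) still fell between L and WT skin. *Pkm* (-0.69, adjusted p = 0.208) and *Ldha* (-0.88, adjusted p = 0.0699) no longer passed. Calls over all genes went from 8237 to 2407 with this covariate, so calls were lost across the whole table. Between L and NL skin, *Aldoa* (-1.55, adjusted p = 0.0261) passed under the covariate, while *Hk2*, *Pfkm*, *Pkm* and *Ldha* did not. Calls over all genes went from 4782 to 1181 there. Every L library held less muscle marker RNA than every NL and WT library, so muscle level and lesion cannot be told apart.

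**Figure D4:**
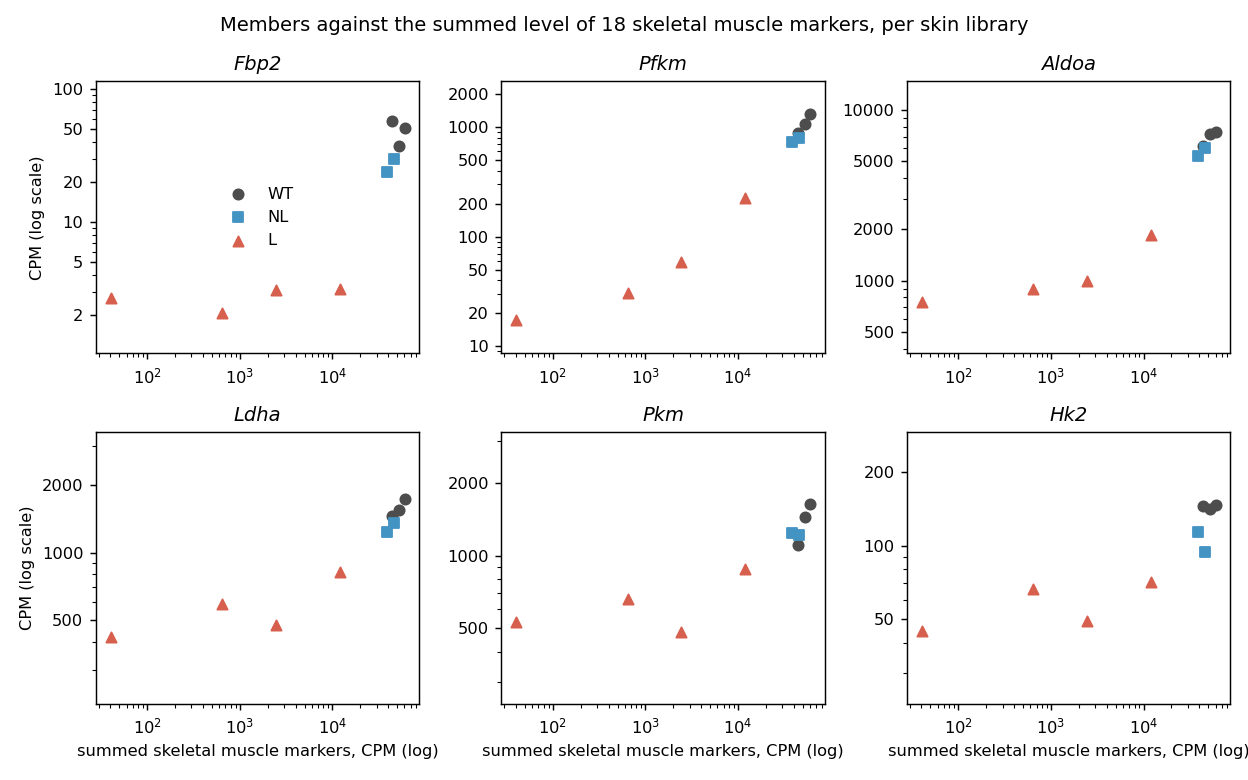
The CPM of 6 members is plotted against the summed CPM of 18 skeletal muscle markers in each skin library, both on log axes. *Pfkm* is lowest where the markers are lowest, while *Fbp2* stays between 2.07 and 3.13 CPM in the L libraries as the markers go from 40.3 to 12002 CPM.

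Scaled by exonic length, so that genes can be set side by side, *Aldoa* led in every skin group, with 2379 ± 240 CPM per kb in WT (SD, n = 3) and 389 ± 172 in L skin (SD, n = 4). In WT skin it was followed by *Ldha* (478 ± 43.2), *Pfkm* (325 ± 64.6), *Pkm* (279 ± 53.1) and *Pgk1* (166 ± 18.4), of which *Pfkm* and *Pkm* differed by less than their spread. *Fbp2* (33.0 ± 7.07), *Hk2* (24.1 ± 0.508), *Slc2a1* (13.7 ± 2.12), *Hk1* (7.83 ± 0.444) and *Pfkp* (5.44 ± 0.379) came after them. In L skin *Fbp2* was last at 1.87 ± 0.336 CPM per kb, *Pgk1* (131 ± 28.2) and *Pkm* (128 ± 35.7) were level, and *Hk2* (9.69 ± 2.16) no longer stood apart from *Hk1* (9.09 ± 1.90). These pairs depend on the length used. With the longest transcript as the length, mean *Pkm* (263) exceeded *Pgk1* (162) and *Hk1* (18.1) exceeded *Hk2* (10.5) in L skin. In WT skin *Pkm* (574) then exceeded *Pfkm* (377).

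Other genes of the pathway, in 5 lists also written with earlier results known, moved in both directions between L and WT skin. Of 17 tested of 21 other glycolysis enzymes, 7 fell and 3 rose, with a median log2 difference of -0.05, where the median of all tested genes was 0.06 and 20.2% of them fell and 23.0% rose, which are the shares to set beside each list here. Among the largest falls were those of the muscle forms *Eno3* (-3.90, adjusted p = 0.0318) and *Pgam2* (-3.81, adjusted p = 0.0476). *Gapdh* fell by 2.12 (SE 0.30, adjusted p = 0.000869), from a mean of 2520 to 579 CPM, and its 4 L values, 389 to 943 CPM, all lay below every other library.

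Of 11 tested glucose and lactate transporters, 4 fell and 3 rose (median -0.45). *Slc2a6*, a transporter of lysosomal membranes, rose by 2.27 (SE 0.39, adjusted p = 0.00207), from 0.471 to 2.28 CPM, and the lactate exporter *Slc16a3* fell by 1.73 (SE 0.43, adjusted p = 0.0134). Of 6 tested gluconeogenesis enzymes, 3 fell and 1, *Fbp1*, rose (median -1.22); *Slc37a4*, which carries glucose phosphate into the endoplasmic reticulum, fell by 1.66 (SE 0.19, adjusted p = 0.000381), and *Pcx*, pyruvate carboxylase, by 1.56 (SE 0.41, adjusted p = 0.0164).

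Of 15 regulators of glycolysis, 10 fell and 3 rose (median -0.76). The pyruvate dehydrogenase kinases *Pdk4* (-4.10, adjusted p = 0.00615) and *Pdk2* (-2.61, adjusted p = 0.00111) and the muscle and liver regulator *Pfkfb1* (-2.50, adjusted p = 0.00762) fell furthest. Of 14 glycogen enzymes, 11 fell and 1 rose (median -2.36, against -3.81 for the 18 skeletal muscle markers), led by the muscle glycogen phosphorylase *Pygm* (-4.22, adjusted p = 0.0296) and the phosphorylase kinase subunits *Phka1* (-3.03, adjusted p = 0.00674) and *Phkg1* (-2.86, adjusted p = 0.0406). *Pygm* stood at 16.3% of its WT mean in L 4 and 0.112% in L 5, the libraries with the most and the least muscle RNA of the 4. The 5 lists together held 35 genes that fell and 11 that rose of 63 tested, and 15 and 5 with the muscle level as a covariate. With that covariate, calls over all genes went from 8237 to 2407. Of 14 hypoxia response genes outside glycolysis, 4 fell and 2 rose (median -0.09), where 20.2% of all tested genes fell and 23.0% rose.

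Between L and NL skin the 5 lists held 21 genes that fell and 8 that rose of 63 tested, where 11.8% of all tested genes fell and 13.2% rose. Named here are called genes with large changes, and genes that were not called could differ by more. Among glycolysis enzymes they were *Gapdh* (-1.82, adjusted p = 0.00557) and *Tpi1* (-1.06, adjusted p = 0.0102). All tested genes of that list ran from -3.45 to 3.39. Among transporters they were *Slc2a4* (-2.18, adjusted p = 0.0252), *Slc2a6* (1.66, adjusted p = 0.0248) and *Slc2a12* (-1.45, adjusted p = 0.00122). In gluconeogenesis they were *Fbp1*, *Slc37a4* (-1.55, adjusted p = 0.00205) and *G6pc3* (-0.69, adjusted p = 0.0103). *Pdk2* (-2.25, adjusted p = 0.00637), *Tigar* (-1.48, adjusted p = 0.00124) and *Txnip* (-1.37, adjusted p = 0.0108) led the called regulators. The lowest value in that list, called or not, was -2.68. *Phka1* (-2.80, adjusted p = 0.0208) and *Pgm1* (-2.33, adjusted p = 0.00400) were among the called glycogen enzymes that fell furthest. Between NL and WT skin none of the 63 was called, and 3 had an unadjusted p under 0.05.

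In the nodes no member was called in any of 5 comparisons, and *Fbp2* was all but missing. *Fbp2* had 0 counts in 11 of the 12 node libraries, which allows at most 0.0824 to 0.109 CPM for counting error alone, and 6 counts in TG library 11 after UVB. That library also held 845 counts of *Fbp1*, against at most 3 in each of the other 11, and 646 of *G6pc*, against 0. Per kb of exon, *Aldoa* (152 ± 6.55), *Ldha* (127 ± 7.83), *Pkm* (127 ± 3.79) and *Pgk1* (92.1 ± 5.39) led in untreated WT nodes (SD, n = 3), with the first 3 close together. *Hk1* (21.8 ± 2.78), *Slc2a1* (16.3 ± 1.85) and *Pfkp* (9.83 ± 0.423) came next, and *Pfkm* (3.65 ± 0.127) and *Hk2* (0.713 ± 0.0767) last. *Hk2* thus made up 3.07% to 7.06% of *Hk1* and *Hk2* in the 12 node libraries, against 73.9% to 76.6% in WT skin, in tables that were normalized separately.

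After UVB, 3 members were lower in all WT nodes than in all untreated WT nodes, and none was higher, where 17.3% and 19.8% of all tested genes were so. *Aldoa* stood at 371, 343 and 391 CPM in WT 7, 8 and 9 after UVB and at 431, 466 and 434 CPM in the untreated WT 1, 2 and 3 (log2 difference -0.27, SE 0.11, adjusted p = 0.148). *Pgk1* stood at 182, 172 and 171 against 193, 216 and 210 CPM (-0.24, SE 0.11, adjusted p = 0.180), and *Pkm* at 582, 564 and 598 against 630.5, 615 and 653 CPM (-0.12, SE 0.12, adjusted p = 0.530). None of the 9 tested members passed the test, while 2.92% of all tested genes rose and 2.06% fell, 805 in all. That total was 0 without WT 8, 29 without WT 9 and 7 without the untreated WT 3, 2644 without TG 12 after UVB, 2431 with only the compared groups in the fit and 1967 by DESeq2. Of the members, 2 (*Aldoa* and *Pgk1*) had an unadjusted p under 0.05. Without TG 12 after UVB, which enters through the shared spread, these 2 passed (adjusted p = 0.0422 and 0.0274). Beside these, 4 of 6 tested erythroid markers fell in the same comparison. All 10 cycling cell markers had a positive difference and an unadjusted p under 0.05, with a median of 1.04, though 1 alone passed the adjusted test, and their part in the result was not tested. *Hk2* was the one member with a larger value after UVB by more than 0.2 on the log2 scale: 8.11, 4.58 and 5.09 CPM after UVB against 4.35, 3.76 and 4.67 CPM (0.48, SE 0.23, adjusted p = 0.196), resting mostly on WT 7.

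In TG nodes UVB left no member called, nor any of the 16173 genes tested (0%), although 1507 of them had an unadjusted p under 0.05. DESeq2 called 132 genes, and 236 were called without TG 12. *Aldoa* stood at 368, 439 and 511 CPM in TG 10, 11 and 12 after UVB and at 454, 399 and 417 CPM in the untreated TG 4, 5 and 6, a difference of 0.05 (SE 0.11). For *Pgk1* the difference was -0.04 (SE 0.11), for *Pkm* -0.03 (SE 0.12) and for *Hk1* 0.09 (SE 0.11), and the groups overlapped in each. TG 12 was the highest of the 12 node libraries for *Aldoa*, *Pgk1*, *Pkm*, *Ldha* and *Hk1*.

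TG and WT nodes after UVB differed by 0.26 (SE 0.11) in both *Aldoa* and *Hk1*, without passing the test (adjusted p = 0.702 and 0.70). With one library left out the differences went from 0.13 to 0.39 for *Aldoa* and from 0.18 to 0.39 for *Hk1*. No gene was called here either (0%), with 1131 at an unadjusted p under 0.05 and 18 called by DESeq2. The interaction of UVB and genotype, which asks whether the response differed between WT and TG mice, was 0.32 (SE 0.16, adjusted p = 0.848) for *Aldoa* and 0.29 (SE 0.16, adjusted p = 0.848) for *Hk1*. None of the 16173 genes passed it (0%), 881 had an unadjusted p under 0.05, and DESeq2 called 5. Without UVB, no member and no other gene was called between TG and WT nodes (0%), with 549 genes at an unadjusted p under 0.05, no member among them, and 2 genes called by DESeq2.

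**Figure D5:**
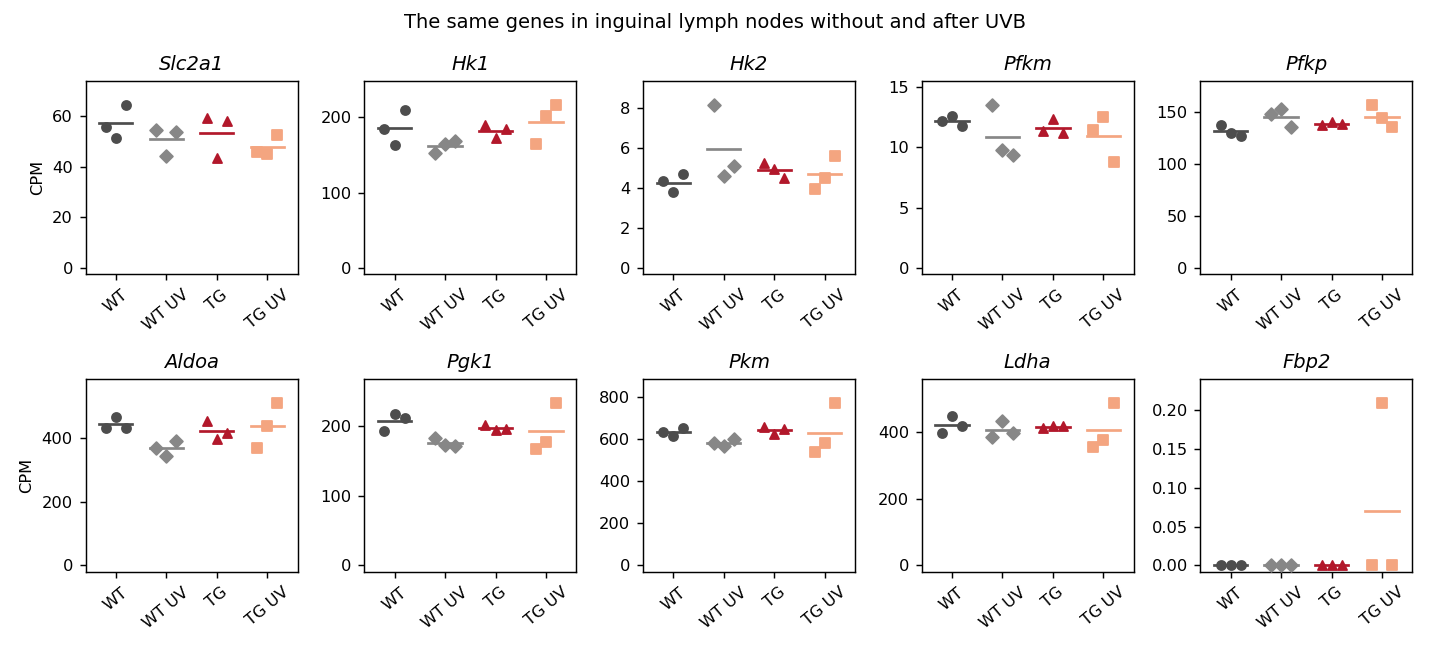
Each panel plots the CPM of 1 gene on a linear axis for the 12 lymph node libraries, 3 in each group of genotype and UVB, with lines at the group means. *Aldoa* and *Pgk1* lie lower in WT nodes after UVB than before, TG nodes after UVB spread widely in *Aldoa*, *Pgk1*, *Pkm* and *Ldha*, and *Fbp2* is at 0 in all but 1 library.

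No share of isozymes in nodes passed the test for a difference with UVB over both genotypes (6 against 6 libraries, two-sided exact permutation tests). *Pfkm* made up 13.2% ± 2.01 of the 3 phosphofructokinases after UVB and 14.95% ± 1.01 without it (SD, n = 6 each, exact p = 0.0974, adjusted p = 0.303), and the difference was -2.21 percentage points without WT 7 (exact p = 0.0433). *Slc2a1* made up 60.7% ± 2.15 and 62.6% ± 2.12 of its 3 transporters (exact p = 0.152, adjusted p = 0.303), with a difference of -2.67 percentage points without the untreated TG 5 (exact p = 0.0476). *Hk2* made up 4.16% ± 1.47 and 3.43% ± 0.334 of *Hk1* and *Hk2* (exact p = 0.251), a difference of 0.736 percentage points that was 0.157 without WT 7. *Ldha* made up 88.9% ± 6.31 and 89.5% ± 1.29 of both subunits (exact p = 0.972). The *Ldha* share was 76.5% in TG 11, the library with kidney genes, which also held the most *Ldhb* (55.0 CPM against at most 28.6 CPM elsewhere). Without TG 11 the difference in the *Ldha* share was 1.94 percentage points in the other direction (exact p = 0.0606).

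Among the other pathway genes in nodes, 4 fell and 1 rose of 54 tested in WT mice after UVB. *Adpgk*, the ADP-dependent glucokinase, rose by 0.55 (SE 0.14, adjusted p = 0.0421). *Epas1*, a hypoxia-inducible factor subunit, fell by 0.84 (SE 0.20, adjusted p = 0.0362), *Pdk1* by 0.64 (SE 0.12, adjusted p = 0.0234), *Pgm1*, a phosphoglucomutase, by 0.54 (SE 0.11, adjusted p = 0.0279) and *Slc2a9*, a urate and sugar transporter, by 0.33 (SE 0.09, adjusted p = 0.0451). These calls rest on few libraries: leaving out one node library at a time gave 0 to 1 genes that rose and 0 to 6 that fell, with none of the falls left without the untreated WT 3, or without WT 8 or WT 9 after UVB. In the other 4 node comparisons none of the 54 was called, and 1 to 5 of them had an unadjusted p under 0.05.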

How the data were processed

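Poly-A RNA of mouse skin (9 libraries) and inguinal lymph nodes (12 libraries) was sequenced. The authors deposited expected counts per gene for each tissue, estimated by RSEM 1.3.3 from STAR 2.7.8a alignments to GRCm38 after trimming with cutadapt 4.8, with FastQC 0.11.8 and MultiQC 1.20 for quality control, as the submitters' processing notes name them. The annotation release and strand setting are not given in the sources used here. Gene places and exonic lengths came from GENCODE M21, which held 55227 of the 55491 gene IDs, and promoter windows from RefSeq.

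Expected counts were rounded to whole numbers. The tissues were fitted separately with edgeR 4.0.16 in R 4.3.3: filterByExpr (minimum count 10, minimum total 15), TMM scaling, the robust quasi-likelihood test on all groups of the tissue, and Benjamini-Hochberg adjustment over all genes tested at 0.05. CPM values were TMM-scaled. Shares of isozymes were compared by exact permutation tests over libraries. The members and lists were chosen with earlier results of these data known. Named beside the 10 members were up to 3 called genes with the largest change per list and comparison, isozymes of members, and the genes closest to *Fbp2*, of which some are not reported here. *Ifnk* and kidney genes were named for checks or after their values were seen. Steps were tested on simulated data with known changes. Of 22 pairs of replicates, none was identical. Intervals from 0 counts (3 counts) cover counting error only.

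Alternatives were DESeq2 1.42.0, other scalings and filters, only the compared groups, no robust estimation, glmTreat against a log2 change of 1, skeletal muscle genes left out or their level as a covariate, other lengths, and each library left out in turn.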

Additional observations from a re-analysis of the deposited data

Results flagged for a closer look

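Among 23 groups of 4 or 6 values examined, 2 held a library far from the others, with a Dixon ratio above the 95% critical value, where chance alone gives about 1 in 20. The *Hk2* share of *Hk1* and *Hk2* in nodes after UVB was 7.06% in WT library 7, with the next library at 4.13% (ratio 0.734). The *Ldha* share of *Ldha* and *Ldhb* in nodes after UVB was 76.5% in TG library 11, with the next at 89.3% (ratio 0.750). That library held 403 CPM of *Kap* and 153 CPM of *Slc34a1*, both genes of kidney tubules, and the part of this RNA in the value was not tested. *Fbp2*, a gene too low to be tested in the nodes, had 6 counts in the same library and 0 in the 11 others.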

How the results depend on the processing

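Of 300 skin and 134 node fold changes of members recomputed with all libraries kept, 282 and 134 kept their direction and side of the threshold. With one library left out this held for 252 of 270 skin and 196 of 204 node values. The node values cover a selection of members and comparisons, with none for TG against WT nodes without UVB. No member was called in the nodes. Keeping the side of the threshold there, with all libraries kept, meant only that members stayed uncalled. The cause of the changes below was not tested. No paired analysis was possible because the labels number the libraries and do not name the mouse behind each. Whether any NL and L libraries came from the same mouse is not given. The comparison of L with NL skin therefore treats them as unpaired, and the effect of pairing was not tested.

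Calls of members are given here without *Fbp2*. Between L and WT skin, glmTreat against a log2 change of 1 left *Aldoa* and *Pfkm* called lower of the 5 members. It called 3 other pathway genes higher and 17 lower, against 5 and 15 with the muscle level as a covariate. Members called higher ranged from 0 to 3 with one library left out. Between L and NL skin, *Aldoa* alone of the 5 stayed called lower by glmTreat, as it did with the covariate. Called higher was 1 member, without L 7. The other pathway genes called higher there were 2 by glmTreat, 3 with the covariate and 4 to 10 with one library left out, and those called lower 4, 8 and 9 to 30. In that comparison *Pfkp* turned to -0.19 and *Pgk1* to 0.15 with the covariate, and with one library left out *Pfkp* ranged from -0.022 to 0.22 and *Hk1* from -0.15 to 0.073.

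For UVB in WT nodes, glmTreat called 0 other pathway genes higher and 0 lower, and with one library left out 0 to 1 were higher, 0 to 6 lower, and 0 to 2 members lower. For UVB in TG nodes, DESeq2 called 1 other pathway gene lower, and 0 to 1 were called with one library left out. The differences then ranged from -0.087 to 0.17 for *Aldoa*, -0.0088 to 0.20 for *Hk1*, -0.21 to 0.063 for *Pgk1* and -0.22 to 0.081 for *Pkm*. In nodes with one library left out, the share differences ranged from -1.47 to 1.94 percentage points for *Ldha*, 0.157 to 0.954 for *Hk2*, -2.21 to -1.20 for *Pfkm* and -2.67 to -1.38 for *Slc2a1*. With the longest transcript as the length, 5 of 10 members kept their place in the order of levels in L skin, 6 in WT skin and 5 in WT nodes after UVB.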
